A study of Mus musculus with 12 samples.

Results

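The 10 genes described here carry glucose into the cell and split it to pyruvate and lactate: the glucose transporter genes Slc2a1 and Slc2a3 and the genes of the enzymes Hk2, Gpi1, Aldoa, Tpi1, Pgk1, Eno1, Pkm and Ldha. Members were all probe sets (sets of short oligonucleotides that together read 1 transcript) that the platform annotation of the MG_U74Av2 array gives 1 of these symbols. The rule found 12 probe sets of 8 of the genes, among 12488 probe sets on the array and 8251 genes that it names singly, and none under the name Eno1 or Gpi1, so no value is given for those 2 genes. A probe set is called bright here where its mean in control cells was above 2000 signal units, which held for 8 of the 12. After a filter on dim probe sets 11 of the 12 were tested.

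RNA came from clone C2, a single clone of the mouse embryonic stem cell line E14tg2a with targeted recognition sites for the endonuclease I-SceI, which all groups carried. Control cells were held in phosphate-buffered saline (PBS; 3 arrays). Treated cells were given hydrogen peroxide (H2O2), an oxidant that crosses membranes, diluted in PBS. One set had 100 µM for 15 min (4 arrays) and the other 5 mM for 30 min (5 arrays), and both then recovered for 1 h in maintenance medium. Concentration and exposure time changed together. The time control cells spent in PBS is not given in the sources used here, and their own label names no recovery, so the return to medium and the peroxide cannot be told apart. The labels do not tie the arrays of a group to separate cultures. The p-values therefore measure only spread among these arrays, which may be technical, and the number of arrays limits the precision.

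Glycolysis converts glucose to pyruvate in the cytosol and yields ATP without oxygen. Glucose enters through transporters such as GLUT1 (Slc2a1) and GLUT3 (Slc2a3), hexokinase traps it as glucose 6-phosphate, and aldolase splits the resulting fructose bisphosphate into the triose phosphates that triosephosphate isomerase interconverts. The lower steps, through phosphoglycerate kinase, enolase and pyruvate kinase, return ATP, and lactate dehydrogenase regenerates NAD+ by reducing pyruvate. Mouse embryonic stem cells are known for a high glycolytic rate, and hypoxia-inducible factors and Myc are known regulators of many of these genes.

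The stretches of 250 bases before the transcription start are shown for Hk2, Tpi1, Pkm and Ldha, which between them show 3 patterns over the doses (low at 100 µM for Hk2, high at 5 mM for Tpi1, rising over both for Pkm and Ldha) and have a RefSeq window (build GRCm38.p6). They are printed 5′ to 3′ on the gene's strand, and where RefSeq lists several starts the first in the table is given. Capitals mark matches on either strand to ACGTG or GCGTG, the core of the site of hypoxia-inducible factors, to CACGTG, the E-box, and to GGGCGG, the GC box. CACGTG contains ACGTG on both strands, so each E-box counts under both. The windows are chr6:82774455-82774704 on the minus strand for Hk2, chr6:124814159-124814408 on the minus strand for Tpi1, chr9:59656326-59656575 on the plus strand for Pkm and chr7:46845554-46845803 on the plus strand for Ldha.
Hk2: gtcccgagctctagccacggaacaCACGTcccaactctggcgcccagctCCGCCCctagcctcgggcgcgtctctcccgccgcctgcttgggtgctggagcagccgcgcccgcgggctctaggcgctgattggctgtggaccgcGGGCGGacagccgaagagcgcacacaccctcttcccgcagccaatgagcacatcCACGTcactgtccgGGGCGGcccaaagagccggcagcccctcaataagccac
Tpi1: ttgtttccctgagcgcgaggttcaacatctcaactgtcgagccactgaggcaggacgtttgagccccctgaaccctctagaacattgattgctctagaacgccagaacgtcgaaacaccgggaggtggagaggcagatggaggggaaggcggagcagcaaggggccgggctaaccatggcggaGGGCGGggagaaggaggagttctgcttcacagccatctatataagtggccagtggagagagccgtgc
Pkm: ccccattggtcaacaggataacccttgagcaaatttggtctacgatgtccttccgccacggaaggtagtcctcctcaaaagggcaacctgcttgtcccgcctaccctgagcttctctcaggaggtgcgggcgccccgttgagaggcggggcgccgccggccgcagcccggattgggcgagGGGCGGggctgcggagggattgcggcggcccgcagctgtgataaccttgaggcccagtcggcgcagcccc
Ldha: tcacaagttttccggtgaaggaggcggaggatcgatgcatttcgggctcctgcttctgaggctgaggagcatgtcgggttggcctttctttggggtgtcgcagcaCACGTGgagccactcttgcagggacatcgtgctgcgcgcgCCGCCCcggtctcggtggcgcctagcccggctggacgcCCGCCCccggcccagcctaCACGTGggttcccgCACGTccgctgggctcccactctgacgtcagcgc

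The Hk2 window held 2 matches to ACGTG and 3 to GGGCGG. The Ldha window held 5 matches to ACGTG, of which 4 lie in its 2 E-boxes, and 2 to GGGCGG. The windows of Tpi1 and Pkm each held 1 GGGCGG and none of the other motifs, though another Pkm start had 1 ACGTG. Another Ldha start had 1 GCGTG and none of the other motifs. The 9 member genes with an entry in the table (Slc2a3 has none) have 15 windows, some of which overlap where a gene has several starts. Of these 15 windows, 7 held ACGTG, 5 GCGTG, 1 CACGTG and 11 GGGCGG. Among all 32851 windows of the same length, 16.6% held ACGTG, 28.2% GCGTG, 6.02% CACGTG and 32.7% GGGCGG. A match describes these letters and is not evidence of a bound site.

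The bright end of the scale differed between the groups, which touches the 8 bright probe sets. The signal exceeded by the brightest 0.5% of probe sets was 5319 ± 525 (SD, n = 3) on PBS arrays, 8809 ± 1382 (n = 4) at 100 µM and 10419 ± 1481 (n = 5) at 5 mM. By exact permutation tests (two-sided), p was 0.0179 for 5 mM against PBS and 0.0286 for 100 µM against PBS, the smallest values these designs allow, and 0.143 for 5 mM against 100 µM; adjusted over 9 such tests they were 0.0643, 0.0643 and 0.161. At 5 mM against PBS, 29% of the 420 tested probe sets with a PBS mean above 2000 were higher and 3.1% lower, and above 4000 these shares were 53.6% and 0.725% of 138. At 100 µM against PBS, 23.6% of the 420 were higher and 18.1% lower, and 40.6% and 6.52% of the 138. Between 5 mM and 100 µM, where no control array enters, 33.8% of the 420 were higher and 5.48% lower, and 33.3% and 0.725% of the 138. The part of this shift in the changes of the bright members was not tested, and each is given below beside the median of its signal class (500 to 1000, 1000 to 2000, 2000 to 4000 or above 4000 in PBS). These signal classes were chosen after the values were seen.

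Over all 8695 tested probe sets, 11.7% differed between 5 mM and PBS (494 or 5.68% higher, 524 or 6.03% lower, and 311 and 614 with arrays scaled to a common median), 24% between 100 µM and PBS (1110 or 12.8% higher, 977 or 11.2% lower, and 574 and 1497 with a common median) and 27.4% between 5 mM and 100 µM (1113 or 12.8% higher, 1272 or 14.6% lower, and 1412 and 871 with a common median). Of the 11 tested members, 4 were higher and 1 lower at 5 mM against PBS, 3 higher and 1 lower at 100 µM against PBS, and 5 higher and 1 lower at 5 mM against 100 µM. These are probe sets called at an adjusted p (Benjamini-Hochberg over all 8695, limma) under 0.05. The groups did not overlap for 5, 4 and 8 of the 11 members in the 3 comparisons, against 20%, 32% and 24.3% of all tested probe sets. The median log2 change of the 11 was 0.34, 0.10 and 0.42, against 0.01, 0.08 and -0.05 over all tested probe sets and 0.21, 0.01 and 0.25 over the 420 bright ones. The comparisons share arrays: both comparisons with PBS use the PBS arrays, and the comparison of the doses uses the treated arrays again.

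**Figure D1:**
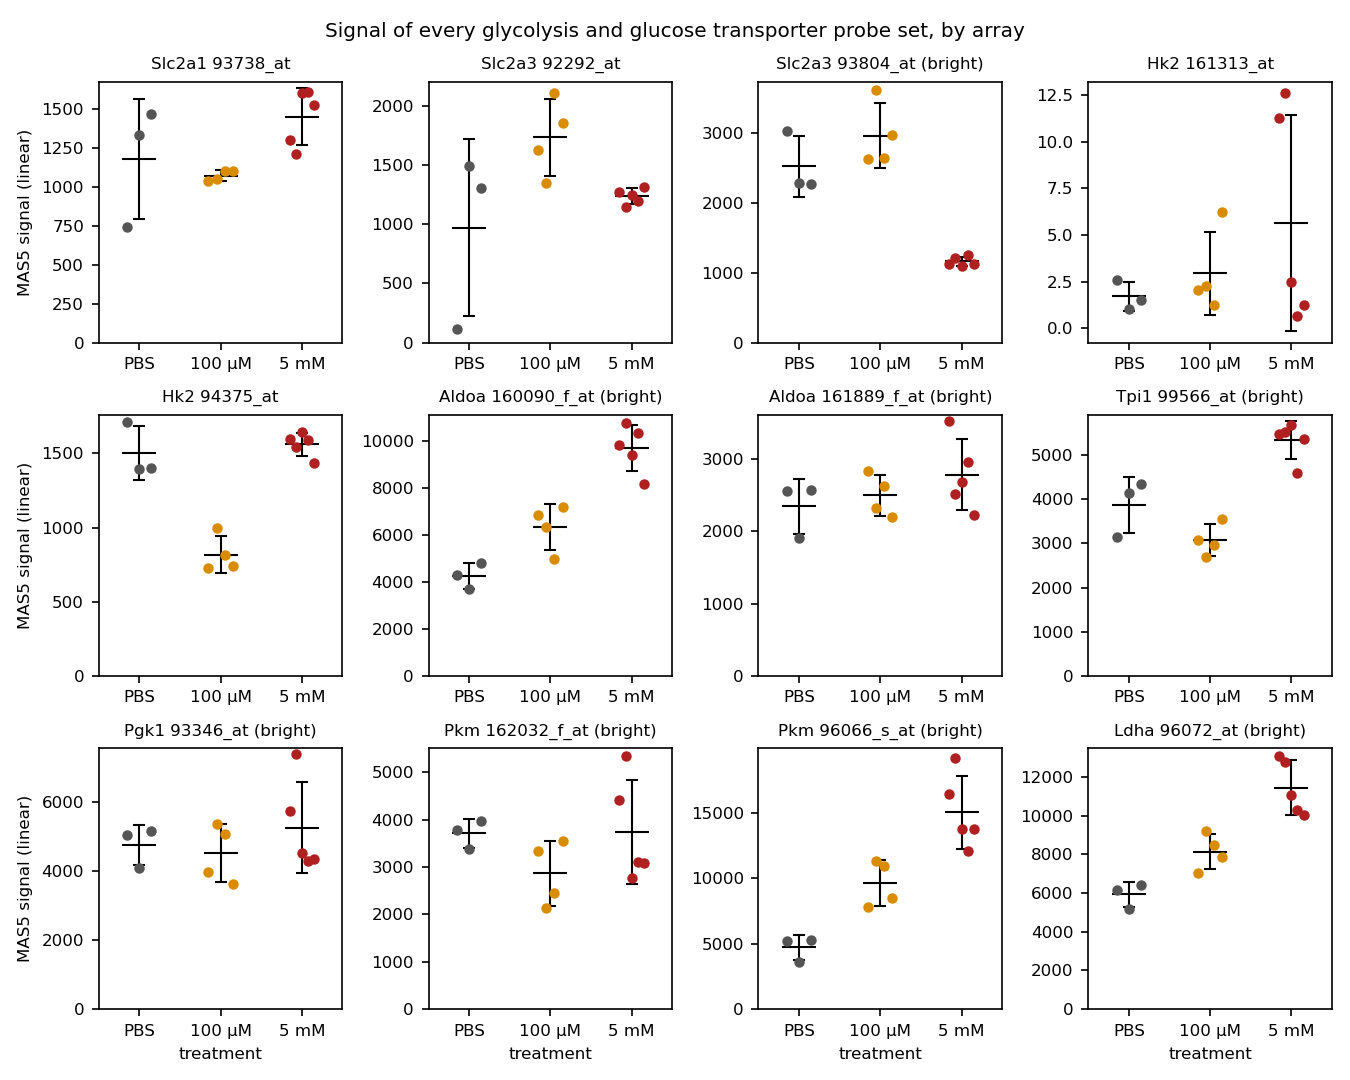
Signal of each of the 12 member probe sets on a linear scale (vertical axis, MAS5 units) for PBS, 100 µM and 5 mM H2O2 arrays. Points are arrays, bars the mean ± SD (n = 3, 4 and 5), and "bright" marks a PBS mean above 2000. Slc2a3 93804_at is low at 5 mM, Hk2 94375_at is low at 100 µM, and Pkm 96066_s_at, Aldoa 160090_f_at and Ldha step up from PBS to 100 µM to 5 mM.

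The glucose transporter gene Slc2a3 fell after 5 mM peroxide by its bright probe set and did not pass after 100 µM. Slc2a3 encodes GLUT3, a high-affinity transporter. Probe set 93804_at read 3033, 2282 and 2269 in PBS cells, 2632, 3615, 2646 and 2976 at 100 µM, and 1124, 1216, 1093, 1257 and 1130 at 5 mM. All 5 arrays at 5 mM lie below every array of both other groups, an arrangement found in 3.96% of all tested probe sets. It fell 2.14-fold at 5 mM against PBS, a log2 change of -1.10 ± 0.13 (SE, adjusted p = 4.68e-05 by limma), and 2.52-fold at 5 mM against 100 µM (log2 -1.33 ± 0.12, adjusted p = 1.18e-06). At 100 µM against PBS the log2 value was 0.23 ± 0.14 and did not pass (adjusted p = 0.248). In bulk RNA, fewer cells that express a gene and less of its RNA per cell cannot be told apart.

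The fall of Slc2a3 ran against the shift of the bright probe sets. Of the 282 tested probe sets with a PBS mean between 2000 and 4000, whose median log2 change was 0.10 at 5 mM against PBS, 93804_at had the lowest change, and it was again the lowest of the 282 at 5 mM against 100 µM, where their median was 0.22. Its changes kept their sign and passed under all 23 alternatives, ranging from -1.23 to -0.96 and from -1.45 to -1.22. Most measured markers of primitive endoderm, an extraembryonic lineage that can arise in embryonic stem cell cultures, also fell in both comparisons of 5 mM. Of 14 measured markers 10 fell at 5 mM against PBS and 11 at 5 mM against 100 µM, and 6 rose at 100 µM against PBS, where Slc2a3 93804_at did not pass. These are 71.4%, 78.6% and 42.9% of the 14, against 12.2%, 29% and 24.6% of all 6414 genes called in those comparisons. The summed signal of the 14 ranged from 1054 to 1256 at 5 mM, 6088 to 9085 in PBS and 9353 to 9890 at 100 µM. Gata6, an endoderm transcription factor gene, averaged 182 in PBS, 635 at 100 µM and 23.6 at 5 mM. Their part in the fall of Slc2a3 was not tested. Summed markers of embryonic stem cells (10 of 10 measured) ranged from 26553 to 29677 in PBS, 33037 to 38768 at 100 µM and 30121 to 35787 at 5 mM. Single genes split: 2 were higher and 1 lower at 5 mM against PBS, and 4 higher and 1 lower at 100 µM against PBS. At 5 mM against 100 µM, 1 was higher (Utf1) and 3 lower. The 3 were Klf4, Sox2 and Fgf4, with log2 changes of -1.71, -0.84 and -0.80. These calls are 30%, 50% and 40% of the 10, against 12.2%, 24.6% and 29% of all 6414 genes. The stem cell sum leans on bright genes such as Dppa5a (6071 in PBS, 9655 at 5 mM), so the shift of the bright end touches it. Summed fibroblast markers (8 of 14 measured) ranged from 672 to 1030, 783 to 989 and 741 to 1007 in the same order. Their largest part was Col1a2 (385 in PBS). None of the 8 passed at 5 mM against PBS, and 1, Thy1, fell at 100 µM against PBS. At 5 mM against 100 µM, Thy1 was higher and Timp3 lower. These are 0%, 12.5% and 25% of the 8, against 12.2%, 24.6% and 29% of all 6414 genes.

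A second probe set of Slc2a3 did not show the fall against PBS. Probe set 92292_at read 119, 1494 and 1303 in PBS cells, 1629, 1346, 2108 and 1852 at 100 µM, and 1276, 1142, 1246, 1198 and 1316 at 5 mM. Control replicate 1 stands far below every other array. The log2 value was 0.97 ± 0.53 at 5 mM against PBS (adjusted p = 0.259) and 1.44 ± 0.55 at 100 µM against PBS (adjusted p = 0.0692), and neither passed. Without control replicate 1 these were -0.18 and 0.29, while without control replicate 2 or 3 the value at 100 µM was 2.06 or 1.96 and passed (adjusted p = 0.0197 and 0.0303). All 5 arrays at 5 mM read below all 4 at 100 µM, with a log2 value of -0.47 ± 0.49 (adjusted p = 0.515) that passed in a fit without control replicate 1 (adjusted p = 0.00884) or with only those 2 groups (adjusted p = 0.0124). The array of control replicate 1 also stood apart in Actb, where the 3′ control probe set read 1.99 times the 5′ one. This ratio was 0.871 and 0.921 for control replicates 2 and 3 and between 1.05 and 1.49 on treated arrays. For Gapdh the array did not stand apart, at 0.779 against 0.588 and 0.831 for control replicates 2 and 3. The part of the Actb ratio in the low reading was not tested.

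Slc2a1 encodes GLUT1, the widely expressed basal transporter. Its probe set read 743, 1337 and 1468 in PBS cells, 1038, 1049, 1102 and 1103 at 100 µM, and 1302, 1213, 1605, 1610 and 1526 at 5 mM. The PBS arrays span the range of the 100 µM arrays and overlap those at 5 mM, of which 3 lie above every PBS array, and control replicate 1 is again the lowest. No comparison passed. The log2 value was 0.34 ± 0.18 at 5 mM against PBS (adjusted p = 0.235), -0.08 ± 0.19 at 100 µM against PBS (adjusted p = 0.796) and 0.42 ± 0.16 at 5 mM against 100 µM (adjusted p = 0.0655), where the groups did not overlap. The last passed under 6 of 23 alternatives, among them leaving out control replicate 1 (adjusted p = 0.00713), control replicate 3 (0.0487) or high-dose replicate 2 (0.0471).

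Hexokinase 2, the enzyme that commits glucose to the cell and whose gene is Hk2, was lower after 100 µM peroxide than in PBS and did not pass after 5 mM. Probe set 94375_at read 1710, 1397 and 1398 in PBS cells, 726, 993, 815 and 738 at 100 µM, and 1595, 1542, 1641, 1592 and 1432 at 5 mM. All 4 arrays at 100 µM lie below every other array, as they do for 6.57% of tested probe sets. Hk2 fell 1.83-fold at 100 µM against PBS (log2 -0.87 ± 0.13, adjusted p = 0.000275) and was 1.91-fold higher at 5 mM than at 100 µM (log2 0.93 ± 0.11, adjusted p = 1.94e-05). At 5 mM against PBS its log2 value was 0.06 ± 0.12 (adjusted p = 0.801). The median of its signal class, 634 probe sets between 1000 and 2000 in PBS, was -0.14, 0.10 and -0.05 in these comparisons. Both differences from 100 µM passed under all 23 alternatives, ranging from -1.06 to -0.78 and from 0.86 to 1.05. The other Hk2 probe set, 161313_at, was dim, between 0.669 and 12.6 signal units over the 12 arrays, and was below the filter.

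**Figure D2:**
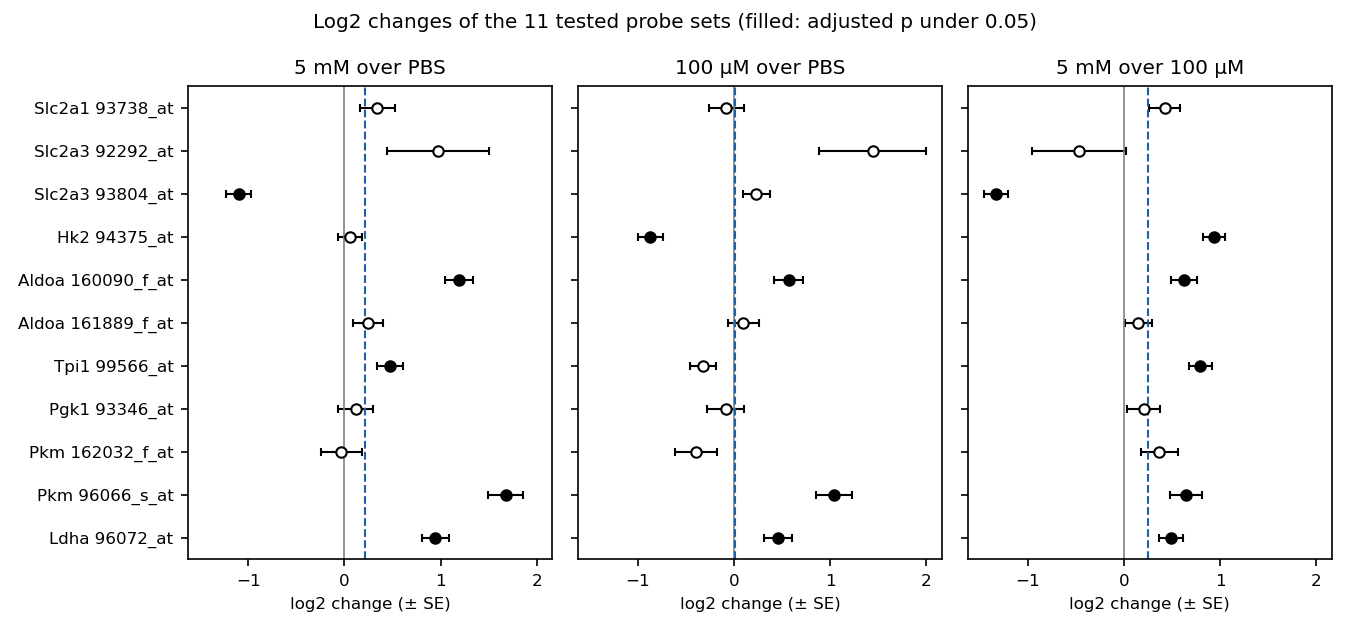
Log2 changes (horizontal axis, ± SE of the model) of the 11 tested member probe sets in the 3 comparisons; filled points passed an adjusted p of 0.05 and the dashed line is the median of the 420 probe sets with a PBS mean above 2000 (0.21, 0.01 and 0.25). Slc2a3 93804_at lies at -1.10 and -1.33 in the comparisons of 5 mM, and Hk2 at -0.87 for 100 µM over PBS.

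Triosephosphate isomerase, whose gene is Tpi1, interconverts the 2 trioses that aldolase makes. Its probe set read 3136, 4134 and 4335 in PBS cells, 3086, 2695, 2959 and 3546 at 100 µM, and 5476, 5530, 5685, 4590 and 5367 at 5 mM. The arrays at 5 mM lie above all others, and those at 100 µM overlap PBS. Tpi1 was 1.74-fold higher at 5 mM than at 100 µM (log2 0.80 ± 0.12, adjusted p = 0.000171), a call held under all 23 alternatives with values from 0.58 to 0.91, and 19 of the other 281 probe sets of its class had a larger change. At 5 mM against PBS it rose 1.39-fold (log2 0.47 ± 0.13, adjusted p = 0.0321), a call kept in 11 of 23 alternatives and lost, among others, with a common median (adjusted p = 0.0946), quantile normalization (0.777), cyclic loess (0.418), without control replicate 1 (0.140) or 2 (0.0622) and without high-dose replicates 1, 2, 3 or 5 (0.0557 to 0.0626). At 100 µM against PBS the log2 value was -0.32 ± 0.14 (adjusted p = 0.104), and it passed without control replicate 1 (-0.47, adjusted p = 0.0291).

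Of the 4 member probe sets with a PBS mean above 4000, those of Pkm, Aldoa and Ldha stepped up from PBS to 100 µM to 5 mM with no overlap between neighbouring groups, and that of Pgk1 did not. This order was seen in 24 of all 8695 tested probe sets (0.276%) and in 10 of the 138 with a PBS mean above 4000 (7.25%). The median log2 change of that class was 0.52 at 5 mM against PBS, 0.28 at 100 µM against PBS and 0.29 at 5 mM against 100 µM.

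Pkm encodes the muscle-type pyruvate kinase that makes pyruvate and ATP in the last step of glycolysis. Its probe set 96066_s_at read 5190, 3606 and 5310 in PBS cells, 7801, 11304, 10902 and 8508 at 100 µM, and 16446, 19159, 13759, 12060 and 13733 at 5 mM. Pkm read 3.20-fold higher at 5 mM than in PBS (log2 1.68 ± 0.18, adjusted p = 1.68e-05), 2.05-fold higher at 100 µM than in PBS (1.04 ± 0.19, adjusted p = 0.00128) and 1.56-fold higher at 5 mM than at 100 µM (0.64 ± 0.17, adjusted p = 0.00891). All 3 calls held under all 23 alternatives, at reduced size after quantile normalization (0.89, 0.55 and 0.34). In its class 12, 26 and 8 of 138 probe sets had a larger change in these comparisons. The other probe set of Pkm, 162032_f_at, ranged from 3383 to 3980 in PBS, 2131 to 3553 at 100 µM and 2766 to 5357 at 5 mM, with log2 values of -0.03, -0.40 and 0.37 that did not pass (adjusted p = 0.942, 0.203 and 0.171).

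Aldoa encodes aldolase A, which cleaves fructose 1,6-bisphosphate. Its probe set 160090_f_at read 4304, 3689 and 4793 in PBS cells, 6866, 6330, 4968 and 7212 at 100 µM, and 9828, 10775, 9432, 10355 and 8191 at 5 mM. Aldoa read 2.28-fold higher at 5 mM than in PBS (log2 1.19 ± 0.14, adjusted p = 5.11e-05), and 30 of 138 probe sets of its class had a larger change. At 100 µM against PBS the log2 change was 0.57 ± 0.15 (adjusted p = 0.0136), lost with quantile normalization (0.29, adjusted p = 0.182), a common median (0.38, 0.145), cyclic loess (0.43, 0.0533) and without control replicate 2 (0.47, 0.0718). At 5 mM against 100 µM it was 0.62 ± 0.13 (adjusted p = 0.00245), lost with quantile normalization (0.34, 0.0670) and cyclic loess (0.37, 0.0545). The other Aldoa probe set, 161889_f_at, ranged from 1908 to 2573 in PBS, 2202 to 2835 at 100 µM and 2232 to 3534 at 5 mM, with log2 values of 0.24, 0.10 and 0.15 that did not pass.

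Ldha encodes the A subunit of lactate dehydrogenase. Its probe set read 6160, 5192 and 6432 in PBS cells, 7056, 9187, 8475 and 7846 at 100 µM, and 13105, 12762, 11052, 10269 and 10048 at 5 mM. The deposited signals gave a 1.93-fold higher reading at 5 mM than in PBS (log2 0.95 ± 0.14, adjusted p = 0.000297), 1.37-fold at 100 µM against PBS (0.46 ± 0.14, adjusted p = 0.0299) and 1.40-fold at 5 mM against 100 µM (0.49 ± 0.13, adjusted p = 0.00840). Against PBS the direction turned after quantile normalization, to -0.20 at 5 mM (adjusted p = 0.147) and -0.40 at 100 µM (adjusted p = 0.00505), and 5 mM against 100 µM was then 0.19 (adjusted p = 0.0817). The call at 100 µM against PBS was also lost with a common median (adjusted p = 0.350), with no filter (0.0587) and without control replicate 1 (0.0508) or 2 (0.134) or low-dose replicate 2 (0.0797) or 3 (0.0674). In its class 40, 58 and 29 of 138 probe sets had a larger change.

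Pgk1, the X-linked gene of phosphoglycerate kinase 1, which makes the first ATP of the pathway, did not pass in any comparison. It ranged from 4088 to 5144 in PBS, 3612 to 5360 at 100 µM and 4295 to 7366 at 5 mM, and the groups overlapped. Its log2 values were 0.12 ± 0.18 at 5 mM against PBS (adjusted p = 0.736), -0.09 ± 0.19 at 100 µM against PBS (0.780) and 0.21 ± 0.17 at 5 mM against 100 µM (0.402). After quantile normalization the first was -0.51 (adjusted p = 0.0167) and the second -0.50 (adjusted p = 0.0123). In the brightest class 112 of 138 probe sets had a larger change than Pgk1 at 5 mM against PBS.

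**Figure D3:**
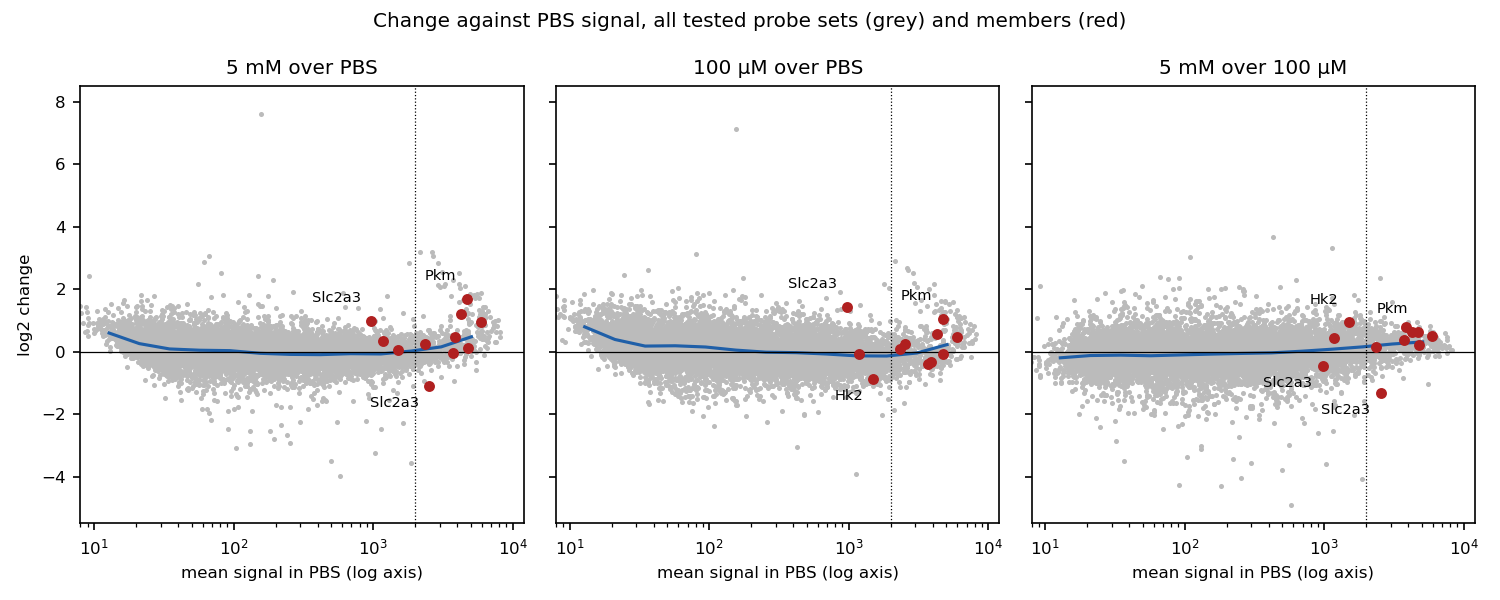
Log2 change of all 8695 tested probe sets (grey) against their mean PBS signal (log axis), with member probe sets in red and the median over bins of signal as a blue line; the dotted line marks 2000. For 5 mM over PBS the median is 0.10 between 2000 and 4000 and 0.52 above 4000, while Slc2a3 93804_at has the lowest change of the 282 probe sets between 2000 and 4000 in both comparisons of 5 mM.

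The members with 2 tested probe sets disagreed by gene. For Pkm and Aldoa the brighter probe set passed in all 3 comparisons and the other in none. For Slc2a3 the probe set 93804_at passed in both comparisons of 5 mM and 92292_at in none. The suffixes _f_at and _s_at mark probe sets whose probes can match related transcripts, and Pkm, Aldoa, Ldha, Pgk1 and Tpi1 are known to have processed pseudogene copies, so the share of each signal that comes from the named gene is uncertain.

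**Figure D4:**
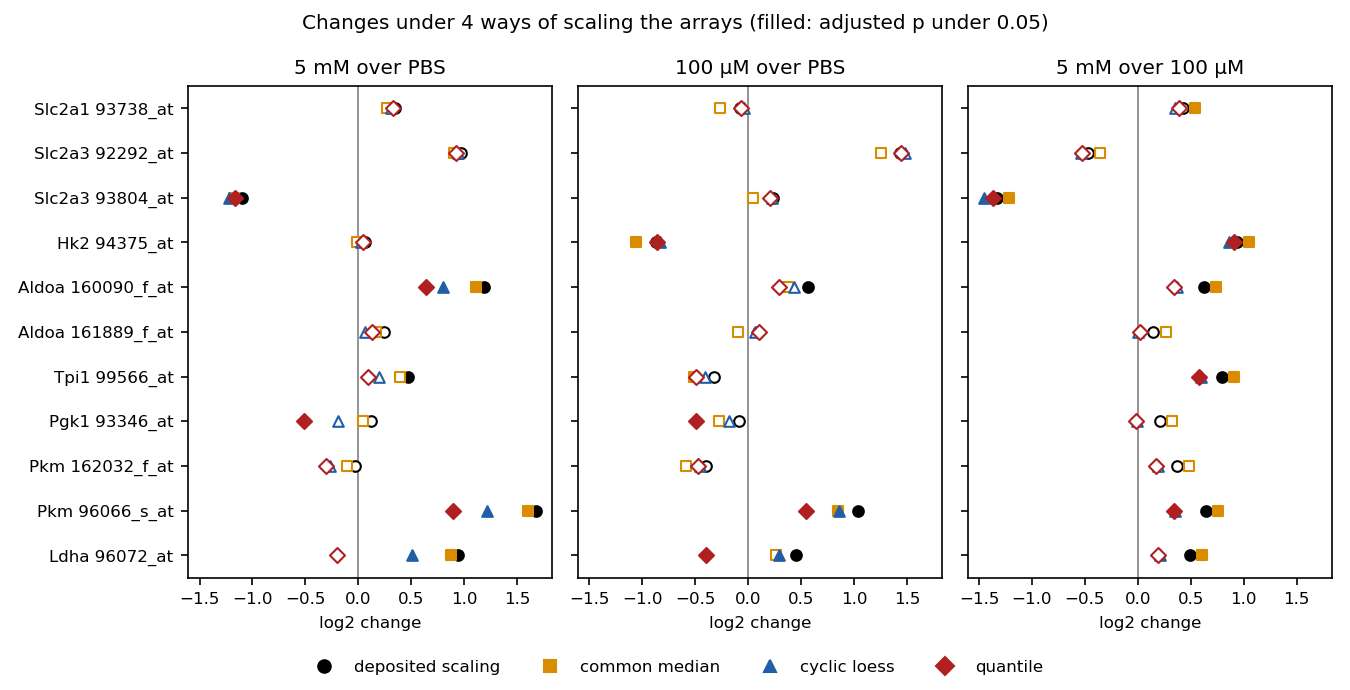
Log2 changes (horizontal axis) of the 11 tested member probe sets under the deposited scaling, a common median, cyclic loess and quantile normalization; filled symbols passed an adjusted p of 0.05. Slc2a3 93804_at stays near -1.10 and -1.33 and Hk2 near -0.87 and 0.93, while Ldha over PBS lies on both sides of 0.

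For each member gene that passed in any comparison, the gene with the most similar pattern was taken as the one with the smallest mean absolute difference of centred log2 values over the 12 arrays, among 7788 probe sets of other genes. For Slc2a3 this was App, the amyloid precursor protein gene (0.16, against a median of 0.63 over the candidates). For Hk2 it was Hikeshi, a nuclear import carrier gene for Hsp70 (0.09 against 0.49), and for Tpi1 Rnasek (0.07 against 0.43). For Pkm it was the chromatin corepressor gene Trim28 (0.11 against 0.66), for Ldha the nucleosome-binding protein gene Hmgn1 (0.10 against 0.45) and for Aldoa Ifitm3, an interferon-induced membrane protein gene (0.16 against 0.52).

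Other genes of glycolysis and glucose transport, 14 measured of 21 listed, were mostly not called against PBS. At 5 mM 1 of the 14 fell, at 100 µM 3 fell, and at 5 mM against 100 µM 4 were higher and 2 lower, and the others did not pass. Their median log2 changes were -0.01, -0.18 and 0.18. Unlike the members, most of them are not bright, and some are dim (Slc2a5 averaged 25.2 and Pgam2 29.9 in PBS). The bright ones, Pgam1 (4046 in PBS), Hk1 (3102) and Pfkl (2463), did not pass against PBS. Their log2 values were 0.28, 0.20 and -0.07 at 5 mM and -0.11, 0.27 and -0.02 at 100 µM. Of these, only Pgam1 was called at 5 mM against 100 µM (log2 0.39, adjusted p = 0.0123 by limma). Over all 6414 genes 12.2%, 24.6% and 29% were called, with medians of -0.01, 0.04 and -0.04. The gene that fell at 5 mM was Pfkm, the muscle-type phosphofructokinase gene, at 237 ± 33.1 (SD, n = 5) in 5 mM cells and 459 ± 120 (n = 3) in PBS cells, a log2 change of -0.90 ± 0.17 (adjusted p = 0.00270).

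The 3 genes that fell at 100 µM were Eno3, Eno2 and Pfkp. Eno3, an enolase gene, averaged 136 ± 10.5 (SD, n = 4) at 100 µM and 317 ± 54.2 (n = 3) in PBS, a log2 change of -1.16 ± 0.16 (adjusted p = 0.000147), and was 2.31-fold higher at 5 mM than at 100 µM (adjusted p = 1.09e-05). Both calls of Eno3 held under all 23 alternatives. Eno2, the neuron-type enolase gene, and Pfkp, the platelet-type phosphofructokinase gene, fell by 0.78 and 0.73 on the log2 scale at 100 µM against PBS (adjusted p = 0.0268 and 0.0234), calls that Eno2 lost in 4 of 22 alternatives (without control replicate 2 or 3 or low-dose replicate 1 or 3) and Pfkp in 3 of 23 (without control replicate 2 or 3 or low-dose replicate 2). Both were higher at 5 mM than at 100 µM, by 1.69-fold and 1.58-fold (adjusted p = 0.0129 and 0.0177 by limma). The call of Pfkp was lost without low-dose replicate 2. Eno2 was dim, with means of 68.9 in PBS, 35.9 at 100 µM and 68.1 at 5 mM. Pgam2, the muscle-type phosphoglycerate mutase gene, was lower at 5 mM than at 100 µM (log2 -1.20, adjusted p = 0.0272), with means of 11.7 and 38.1 signal units near the offset of the log scale, a call lost with the replicate block and without low-dose replicate 1 or high-dose replicate 3 or 4.

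Genes around pyruvate and lactate (11 measured of 23 listed) had 2 lower at 5 mM against PBS and 9 that did not pass. There were 2 higher and 2 lower at 100 µM against PBS, and 1 higher and 1 lower at 5 mM against 100 µM. These are 18.2%, 36.4% and 18.2% called, against 12.2%, 24.6% and 29% of all 6414 genes. Slc16a1, the monocarboxylate transporter gene whose product moves lactate across the plasma membrane, fell against PBS by 0.91 on the log2 scale at 5 mM (adjusted p = 0.0227) and by 0.80 at 100 µM (adjusted p = 0.0288), and both calls were lost without control replicate 1 or 2. The call at 5 mM was also lost without high-dose replicate 1, and that at 100 µM without low-dose replicate 2 or with no filter. Slc16a1 was dim, with means of 110 in PBS, 58.9 at 100 µM and 54.5 at 5 mM. Pdk1, a kinase gene whose product inhibits pyruvate dehydrogenase, averaged 980 ± 177 (SD, n = 5) at 5 mM and 1562 ± 207 (n = 3) in PBS, a log2 change of -0.68 ± 0.16 (adjusted p = 0.0137), lost without control replicate 2 or 3. Its relative Pdk4 rose 2.28-fold at 100 µM against PBS (adjusted p = 0.00496 by limma) and was 2.52-fold lower at 5 mM than at 100 µM (adjusted p = 0.000541), both under all 23 alternatives. Pdk4 was dim, with means of 64.3 in PBS, 153 at 100 µM and 56.1 at 5 mM. Pdk3 fell by 0.45 at 100 µM against PBS (adjusted p = 0.0122, lost without control replicate 2) and was 1.44-fold higher at 5 mM than at 100 µM (adjusted p = 0.00121). Dld, a subunit gene of pyruvate dehydrogenase, rose 1.37-fold at 100 µM (adjusted p = 0.0417), a call lost in 11 of 23 alternatives, among them leaving out control replicate 2 or 3, low-dose replicate 1, 2 or 3, or high-dose replicate 1.

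**Figure D5:**
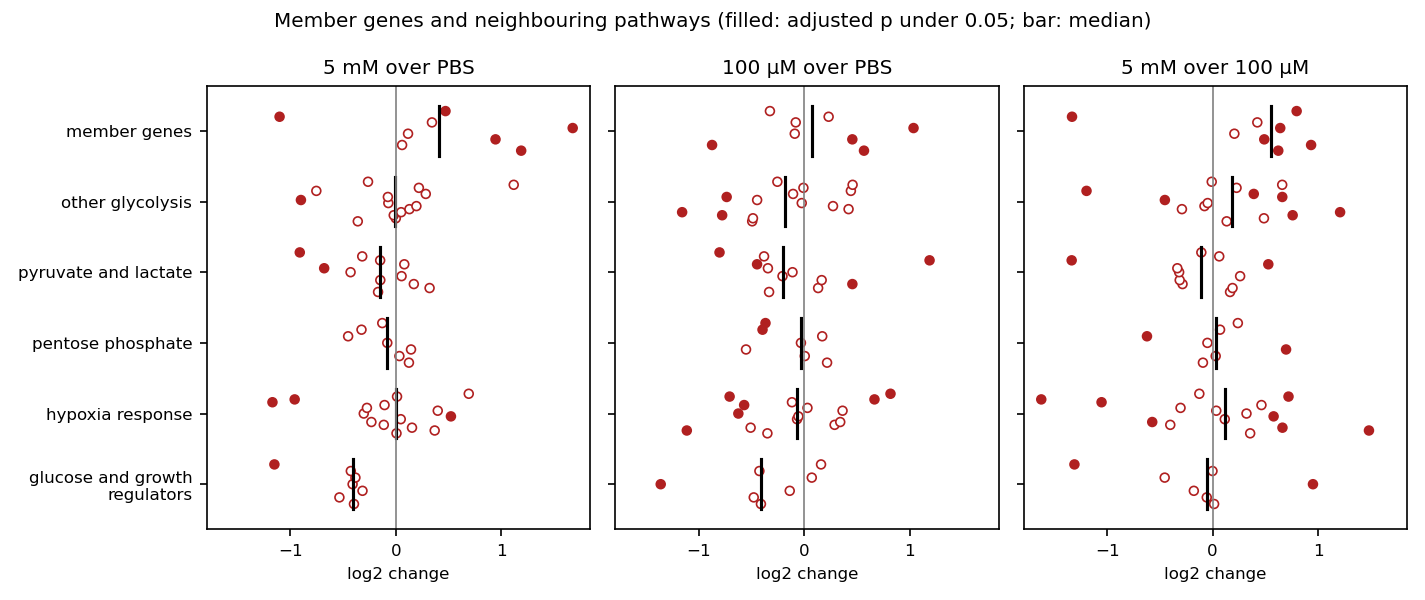
Log2 changes (horizontal axis) of the member genes and of 5 neighbouring gene lists in the 3 comparisons, with 1 probe set per gene; filled points passed an adjusted p of 0.05 and black bars are list medians. The member genes' medians are 0.41, 0.08 and 0.56, and those of the other glycolysis genes -0.01, -0.18 and 0.18. Most member probe sets shown are bright and most of the other glycolysis genes are not, and the part of this was not tested. For Pkm, Aldoa and Slc2a3 only the brighter probe set is shown, and the other tested one of each did not pass in any comparison.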

How the data were processed

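The deposited values are linear intensities, 1 per probe set and array. They are MAS5 signals per the submitters' processing notes, made by the authors by weighing perfect-match against mismatch probes; their version and scaling target are not stated there, and no detection calls were used here. Trimmed means of the arrays (2% at each end) differed by 0.0195%, so the deposited scaling was kept. Equal trimmed means do not show that this scaling suits every level of signal. No pair of arrays held identical values. Intensities were taken to log2 after adding 10.1 signal units, the 20th percentile, which understates changes of dim probe sets. The 66 control probe sets were left out, and probe sets above the 30th percentile of mean log2 value were tested (8695). Symbols came from the platform table, updated through RefSeq. Group means over the 12 arrays were estimated by limma 3.58.1 (R 4.3.3, eBayes with trend), with two-sided tests and Benjamini-Hochberg adjustment over the 8695. A gene of a list stood by its tested probe set of highest mean log2 value.

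Members and gene lists were chosen with earlier results of these data known. All member probe sets are named, and of each other list up to 4 genes per comparison that passed, taken by size of change, or 1 where none passed. The steps were tested on simulated data. Alternatives were quantile, cyclic loess and common-median scaling, another offset or a floor, other filters, no trend, array weights, fewer groups, the replicate number as a block, and leaving out each array.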

Additional observations from a re-analysis of the deposited data

Results flagged for a closer look

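High-dose replicate 4 stood apart for Tpi1, at 4590 signal units against 5367 to 5685 on the other 4 arrays at 5 mM; its gap to the nearest of them was 0.73 of the group's range on the log2 scale. It was 1 such array in 24 groups of member probe sets examined, and chance gives about 1 in 20.

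The array's control probe sets for Gapdh, the glycolytic enzyme gene whose product oxidises glyceraldehyde 3-phosphate, lie outside the tested table and read far higher in treated cells. The 3′ set averaged 17735 ± 4216 (SD, n = 5) at 5 mM and 4383 ± 1466 (n = 3) in PBS, a log2 difference of 2.05, and the 100 µM arrays (13622 ± 1770, n = 4) differed from PBS by 1.69. The 5′ set differed by 1.84 and 1.42 and the middle set by 1.84 and 1.36 in the same order, with no overlap of treated and PBS arrays in any of these 6 differences. Exact two-sided permutation tests gave p = 0.0179 at 5 mM and p = 0.0286 at 100 µM, the smallest values these designs allow (adjusted p = 0.0367 over 9 tests). The control probe sets of Actb, a cytoskeletal gene outside glycolysis, were also higher on every treated array than on any PBS array. Their 3′ set averaged 5558 in PBS, 13119 at 100 µM and 17638 at 5 mM, the middle set 5788, 11274 and 15966, and the 5′ set 4911, 10027 and 14592. All 3 Gapdh sets had PBS means above 2000, and the shift of bright probe sets moves with them; its part was not tested.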

How the results depend on the processing

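The changes of Slc2a3 93804_at, Hk2 94375_at and Pkm 96066_s_at that passed did so under all 23 alternatives. Under quantile normalization the value of Ldha turned to -0.20 at 5 mM and -0.40 at 100 µM against PBS, and that of Pgk1 at 5 mM against PBS to -0.51; the cause was not tested. The count of 1018 probe sets that differed between 5 mM and PBS became 1655 with array quality weights and 597 with the replicate block, and ran from 493 (without control replicate 2; 602 without control replicate 3) to 1019 when 1 array was left out. At 100 µM against PBS the count of 2087 ran from 1425 to 2133, and at 5 mM against 100 µM that of 2385 from 1992 to 2550. Members called ran from 4 to 5, 3 to 5 and 6 to 8 in the same comparisons when 1 array was left out. The difference of the bright end at 100 µM against PBS was 560 units at the 99th percentile (exact permutation p = 0.257). A common median moved the median of all changes at 100 µM against PBS from 0.08 to -0.09 and at 5 mM against 100 µM from -0.05 to 0.05.

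The labels do not say whether same-numbered arrays of different groups belong together. Over 10 such pairs the deviations from group means correlated between -0.18 and 0.15, 2 pairs above 0.1. The 37 pairs with unlike numbers correlated between -0.16 and 0.18, 5 of them above 0.1. Of 11 arrays, 4 correlated best with their own number. With so few arrays per group these correlations cannot decide whether the arrays were paired. With the replicate block 4, 4 and 6 members were called in place of 5, 4 and 6.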

Other observations

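Of 7 measured regulators of glucose use and growth, 1 fell at 5 mM and 1 at 100 µM against PBS, and the others did not pass. Each is 14.3% of the 7, against 12.2% and 24.6% of all 6414 genes. Txnip, whose product restrains glucose uptake, averaged 1027 in PBS, 1104 at 100 µM and 440 at 5 mM. Its log2 change was -1.15 ± 0.17 (SE, adjusted p = 0.000311) at 5 mM against PBS and -1.31 ± 0.15 (adjusted p = 1.45e-05) at 5 mM against 100 µM, and both passed under all 23 alternatives. Myc fell by 1.36 on the log2 scale at 100 µM against PBS (adjusted p = 0.000625) and was 1.93-fold higher at 5 mM than at 100 µM (adjusted p = 0.00205).

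Of 15 measured hypoxia response genes, 1 rose and 2 fell at 5 mM against PBS, and 2 rose and 4 fell at 100 µM against PBS. At 5 mM against 100 µM, 4 were higher and 3 lower. These are 20%, 40% and 46.7% of the 15, against 12.2%, 24.6% and 29% of all 6414 genes, and calls went both ways in each comparison. The collagen prolyl hydroxylase genes P4ha1 and P4ha2 fell at 5 mM against PBS by 1.17 and 0.96 on the log2 scale (adjusted p = 0.000580 and 0.000164). P4ha2 rose 1.59-fold at 100 µM against PBS (adjusted p = 0.00286), a call lost with a common median. Bhlhe40, a transcriptional repressor gene, fell by 1.11 at 100 µM against PBS (adjusted p = 0.00711) and was 2.79-fold higher at 5 mM than at 100 µM (adjusted p = 0.000201). Vegfa, an angiogenic growth factor gene, fell by 0.71 at 100 µM against PBS (adjusted p = 0.0341 by limma), lost in 8 of 23 alternatives, among them without control replicate 2 or 3 or low-dose replicate 2, 3 or 4. Vegfa was dim, with means of 90.1 in PBS, 50.3 at 100 µM and 88.6 at 5 mM. Hif1a rose 1.44-fold at 5 mM against PBS (adjusted p = 0.0411). Vhl rose 1.76-fold at 100 µM, from a dim mean of 28.1 in PBS to 54.4 (adjusted p = 0.0324). These calls were lost in 12 of 23 and 11 of 22 alternatives. Leaving out control replicate 2 or 3, low-dose replicate 1 or high-dose replicate 1, 3, 4 or 5 ended that of Hif1a, and control replicate 1 or 2 or low-dose replicate 1, 2 or 3 that of Vhl.

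Of 7 measured pentose phosphate genes none passed at 5 mM against PBS in limma (2 with an unadjusted p under 0.05); the largest value was -0.45 for Rpia (adjusted p = 0.0927). Taldo1 and Tkt fell by 0.39 and 0.37 at 100 µM against PBS (adjusted p = 0.0186 and 0.0457), lost in 3 and 13 of 23 alternatives. That of Taldo1 ended without control replicate 1 or 2, and that of Tkt without control replicate 2 or 3, low-dose replicate 1, 2 or 3 or high-dose replicate 1, 3, 4 or 5. At 5 mM against 100 µM Pgls was 1.62-fold higher (adjusted p = 0.00638) and Rpia lower by a log2 of -0.62 (adjusted p = 0.00631). The share of the 7 called was 0%, 28.6% and 28.6% in the 3 comparisons, against 12.2%, 24.6% and 29% of all 6414 genes.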
